A study of Mus musculus with 12 samples.

Results

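The proliferation and DNA replication genes are 42 mouse genes that act in the duplication of DNA or in cell division. They were chosen by symbol as known cell cycle genes and matched by Ensembl identifier. No measured value entered the rule of choice, but the choice was made with earlier results of these data known. All 42 were found among the 56262 gene identifiers counted in lung tissue and among the 54532 counted in sorted AT2 cells (alveolar type 2, the epithelial cells that make surfactant). The mice were C57BL/6. Lung tumours came from 3 mice (numbers 102, 217 and 224) with Med23 deleted in T cells, aged 18 months, and were set against adjacent normal lung of the same 3 animals, so both tissues carried the T cell deletion. AT2 cells were isolated by FACS at 6 months of age from 3 mice with the T cell deletion of Med23 (175, 179 and 191, called knockout below) and from 3 wild-type mice (176, 177 and 190). Med23 encodes a subunit of Mediator, a coactivator of RNA polymerase II. The driver of the deletion was not given in the sources used here, and no lung tissue of wild-type mice was analysed here. The design aimed to characterise the tumours, and to profile AT2 cells at an age before tumours form.

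Before S phase, origins of replication are licensed by loading the MCM helicase with the help of Cdc6 and Cdt1, and the helicase is switched on when Cdc45 and the GINS complex join it. E2F transcription factors, held back by Rb, drive many genes of licensing, nucleotide supply and DNA synthesis. The genes of mitosis are switched on later by FoxM1 and B-Myb with the MuvB complex, which binds promoter elements called CHR. In the adult lung AT2 cells divide rarely and serve as progenitors, and in whole tissue the dividing cells can also be leukocytes, endothelial cells or fibroblasts.

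The 42 members were described in 2 classes. The S phase class held 23 genes: 11 of origin licensing and helicase activation, 8 of DNA and nucleotide synthesis, and 4 of the start of S phase (Ccne1, Ccne2, Cdk2 and E2f1). The mitotic class held 19 genes: 8 of entry into mitosis, 9 of the spindle and chromosome segregation, and 2 of chromosome structure (Mki67 and Top2a). Promoter sequence took no part in the choice of members. RefSeq windows of 300 bases (250 before to 50 after an annotated start, build GRCm38.p6) were found for 34 of the 42 members, in 36 windows. An E2F-type core (the letters TTCCCGC or the letters TTGGCGC or the letters TTCGCGC or the letters TTGCCGC, on either strand) was present in 14 of 21 S phase windows (66.7%) and in 3 of 15 mitotic windows (20%), against 9.57% of the 32851 windows of the whole table. The CHR core TTTGAA was present in 2 of 21 S phase windows (9.52%) and in 11 of 15 mitotic windows (73.3%), against 17.9% of all windows. CCAAT was present in 15 S phase windows (71.4%) and in 14 mitotic windows (93.3%), against 37.4% of all windows.

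The windows of 4 members, picked after their motif counts were seen, are shown as examples of how the motifs lie: Mcm6 and Mcm7 of the MCM helicase, Cdk1, the kinase that starts mitosis, and Cdc20, an activator of the anaphase-promoting complex. Letters of an E2F-type core, a CHR core or CCAAT on either strand are in capitals, and neighbouring matches can overlap. All 4 genes lie on the minus strand and are written in their own 5′ to 3′ direction.
Mcm6, chr1:128359656-128359955: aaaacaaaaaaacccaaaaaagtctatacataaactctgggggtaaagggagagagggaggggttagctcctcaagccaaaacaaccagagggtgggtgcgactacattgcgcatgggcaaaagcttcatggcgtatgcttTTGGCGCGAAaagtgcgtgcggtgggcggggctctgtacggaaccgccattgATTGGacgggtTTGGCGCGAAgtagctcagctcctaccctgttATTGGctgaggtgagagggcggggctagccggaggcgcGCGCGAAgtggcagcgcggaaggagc
Mcm7, chr5:138171834-138172133: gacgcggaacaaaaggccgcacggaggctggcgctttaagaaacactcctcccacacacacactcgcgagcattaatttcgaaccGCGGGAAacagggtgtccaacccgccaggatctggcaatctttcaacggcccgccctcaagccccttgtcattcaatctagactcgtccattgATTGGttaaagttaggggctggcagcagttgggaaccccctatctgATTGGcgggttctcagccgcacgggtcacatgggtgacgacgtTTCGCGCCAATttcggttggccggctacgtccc
Cdk1, chr10:69352863-69353162: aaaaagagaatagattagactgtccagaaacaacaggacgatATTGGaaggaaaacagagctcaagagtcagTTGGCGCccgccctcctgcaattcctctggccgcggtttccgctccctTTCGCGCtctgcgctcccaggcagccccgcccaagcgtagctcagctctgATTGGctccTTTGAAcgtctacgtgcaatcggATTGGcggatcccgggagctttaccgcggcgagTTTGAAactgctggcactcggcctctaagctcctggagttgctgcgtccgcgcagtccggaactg
Cdc20, chr4:118437294-118437593: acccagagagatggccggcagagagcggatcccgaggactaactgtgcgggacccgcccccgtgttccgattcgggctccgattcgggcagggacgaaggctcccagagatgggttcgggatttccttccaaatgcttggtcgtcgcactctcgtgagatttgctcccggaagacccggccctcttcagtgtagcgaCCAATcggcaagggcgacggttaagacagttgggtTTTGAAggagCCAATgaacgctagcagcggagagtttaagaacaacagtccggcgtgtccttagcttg
The Mcm6 window held 5 E2F-type cores and no CHR core. The Mcm7 window held 3 E2F-type cores and 3 CCAAT, and Mcm7 has another annotated start, whose window (chr5:138171217-138171516) held 1 of each. The Cdk1 window held both kinds, 2 E2F-type cores and 2 CHR cores, beside 3 CCAAT. The Cdc20 window held 1 CHR core, 2 CCAAT and no E2F-type core. Other members differ from these examples: the windows of E2f1, Ccne1, Tyms, Tk1 and Birc5 held 0 of the 3 motifs. A match describes letters only and shows no binding.

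Lung libraries held 65163100 to 77951014 counts in all and AT2 libraries held 15943084 to 18913242, so the same level rests on more reads in lung. Levels are in CPM, a gene's counts relative to the library total, after scaling between libraries. Summed AT2 markers were at 141700 to 144400 CPM in knockout and 142300 to 179600 CPM in wild-type AT2 libraries, where 8 T cell markers summed to 1.69 to 3.27 CPM in knockout and 0.917 to 2.59 CPM in wild type. In lung the cell make-up differed between the tissues. The 8 AT2 markers summed to 73850 to 227900 CPM in tumours and 21500 to 42700 CPM in adjacent lung, and 6 endothelial markers to 554 to 605 CPM in tumours and 2559 to 4134 CPM in adjacent lung. The leukocyte gene Ptprc was at 36.7 to 52.3 CPM in tumours and 86.8 to 112 CPM in adjacent lung. In lung no marker of the 13 lists was at 0 in all libraries, and in AT2 libraries 4 were: Slc4a1 of red cells, Tcf21 of fibroblasts, and Elane and Mpo of neutrophils. In bulk samples, fewer dividing cells and less RNA per dividing cell cannot be told apart.

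In the comparison of tumour with adjacent lung, no member passed the test with group as the only term, which ignores the pairing by mouse. With the mouse as a block 1 member, Mcm7, passed. Most members had a higher mean in tumours, by small amounts that differed between mice, and the mitotic genes Mki67, Top2a and Cdk1 overlapped between the tissues. With edgeR's quasi-likelihood test and Benjamini-Hochberg adjustment, 0 of 42 members were called at an adjusted p under 0.05 in either direction, where 2.86% of the 19995 genes tested were called higher and 7.18% lower in tumours. At an unadjusted p under 0.05 there were 2 members, Mcm7 (higher, as were 7.94% of all genes tested) and E2f1 (lower, as were 16.0%). DESeq2 called 0 members with 3 at an unadjusted p under 0.05, and limma-voom called 0 with 2. Of the 19995 genes tested, 5423 and 4977 were at that level with these tools. With the mouse as a block, edgeR called 1 member, Mcm7, where 5.57% of all genes tested were called higher and 9.34% lower. At an unadjusted p under 0.05 there were then 6 members, and 6620 of the 19995 genes tested. The median log2 fold change of the members was 0.28 and that of all genes 0.04. It was above 0 in 35 of 42 members, but in 24 when libraries were scaled by their totals alone, which moved the median of all genes by -0.22. Relative to the median of all genes the members' median was higher by 0.25 with the main scaling and by 0.22 with library totals, and 35 members lay above it with either. The median standard error of a member's log2 fold change was 0.49, and 0.29 with the mouse as a block. Lung values below are from the fit without the block unless it is named.

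Among the licensing genes, Mcm7 had the smallest p. Mcm7 was at 32.5, 59.8 and 53.4 CPM in the tumours of mice 102, 217 and 224, against 21.3, 27.7 and 28.2 CPM in adjacent lung of the same mice. All 3 tumours lay above all 3 adjacent libraries. The log2 fold change was 0.92 ± 0.33 (edgeR, adjusted p = 0.135), and 0.88 ± 0.19 with the mouse as a block (edgeR, adjusted p = 0.0426); without the block it did not pass in any other setting. Its exons (chromosome 5, 138164583 to 138172422) share 7.25% of their length with Ap4m1 on the opposite strand, which had means of 54.4 CPM in tumours and 32.0 CPM in adjacent lung. Whether those shared reads enter the Mcm7 value was not tested. Mcm2, another subunit of the helicase, was at 19.4, 29.7 and 29.8 CPM in tumours and 14.3, 22.6 and 23.4 CPM in adjacent lung. It was higher in the tumour in each mouse, while the groups overlapped (0.39 ± 0.34, edgeR, adjusted p = 0.573). Mcm3 had a lower mean in tumours, with 15.3, 20.2 and 25.1 CPM against 15.6, 43.0 and 31.8 CPM in adjacent lung. Here the tumour was lower in each mouse (-0.58 ± 0.42, edgeR, adjusted p = 0.486). The 6 MCM subunits, which form a single ring, thus had log2 fold changes between -0.58 (Mcm3) and 0.92 (Mcm7), with Mcm4 at -0.09. The other licensing genes, the loaders Cdc6 and Cdt1 and the helicase activators Cdc45, Gins1 and Gins2, lay between 0.18 and 0.89, with Cdt1 at -0.10 when scaled by library totals. Gins2 shares 67.3% of its exonic length with Gse1 on the opposite strand. It was at 8.82 to 71.8 CPM in tumours and 4.20 to 32.4 CPM in adjacent lung, where Gse1 had means of 132 and 62.8 CPM. In knockout AT2 cells the mean was 110 CPM for Gse1 and 0.29 CPM for Gins2. Whether Gse1 reads enter the Gins2 level in lung was not tested.

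The synthesis genes had log2 fold changes on both sides of 0. Tyms, thymidylate synthase, was at 11.0, 18.9 and 10.1 CPM in tumours and 5.66, 10.5 and 6.60 CPM in adjacent lung (0.81 ± 0.43, edgeR, adjusted p = 0.309, and 0.0922 with the mouse as a block). Prim1, the catalytic subunit of primase, was at 8.23, 10.6 and 7.59 CPM in tumours and 4.18, 6.96 and 4.48 CPM in adjacent lung (0.76 ± 0.40, edgeR, adjusted p = 0.315, and 0.127 with the block). The groups overlapped for Tyms and did not for Prim1, and both genes were higher in the tumour of each mouse. Pcna, the sliding clamp of DNA polymerases, was at 57.2, 77.4 and 45.1 CPM in tumours and 47.9, 91.8 and 52.6 CPM in adjacent lung. It was higher in the tumour in mouse 102 and lower in mice 217 and 224 (-0.10 ± 0.37, edgeR, adjusted p = 0.920). Rrm2, the small subunit of ribonucleotide reductase, was lower in the tumour of each mouse (-0.40), while Rrm1, the large subunit, had a log2 fold change of 0.14 that turned to -0.09 with library totals. Pola1 of DNA polymerase alpha, thymidine kinase Tk1 and Uhrf1, which links DNA methylation to replication, were at 0.04, 0.32 and 0.08, with Pola1 and Uhrf1 both at -0.16 when scaled by library totals.

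Of the genes of the start of S phase, E2f1 had the lowest log2 fold change of all members. E2f1, an activating E2F factor, was at 5.47, 6.91 and 7.05 CPM in tumours and 8.40, 16.2 and 18.4 CPM in adjacent lung. All 3 tumours lay below all 3 adjacent libraries (-1.15 ± 0.41, edgeR, adjusted p = 0.131), and without 1 library the adjusted p ran over 0.0855 to 0.379. Cdk2, the kinase partner of cyclins E and A, was at 24.5, 28.1 and 53.2 CPM in tumours and 20.8, 20.1 and 18.3 CPM in adjacent lung. The groups did not overlap (0.84 ± 0.37, edgeR, adjusted p = 0.216), and the difference was largest in mouse 224. Ccne1 and Ccne2, the E cyclins, were at -0.79 and 0.18 (Ccne2 at -0.06 when scaled by library totals), each under 5 CPM in every library.

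Among the genes of entry into mitosis, most were highest in the tumour of mouse 217. Cdk1 was at 5.80, 26.3 and 8.69 CPM in tumours and 3.13, 8.24 and 7.68 CPM in adjacent lung. Tumour 217 stood far above the other 5 libraries, and the other tumours lay within or near the adjacent range (1.10 ± 0.66, edgeR, adjusted p = 0.381). Without tumour 217 the log2 fold changes of Cdk1 and its partner Ccnb1 were 0.11 and 0.15. Ccnb1, a B-type cyclin, was at 4.25, 8.26 and 4.21 CPM in tumours and 1.63, 4.36 and 4.79 CPM in adjacent lung (0.63 ± 0.56, edgeR, adjusted p = 0.582). Aurka, the centrosomal Aurora kinase, was at 5.44, 9.22 and 7.71 CPM in tumours and 3.19, 5.25 and 5.41 CPM in adjacent lung. It did not overlap between the groups (0.69 ± 0.43, edgeR, adjusted p = 0.402), whereas Aurkb, the Aurora kinase of the chromosomal passenger complex, was at 0.08 (-0.17 with library totals). Foxm1, the transcription factor of the mitotic programme, was at 5.73, 0.971 and 4.05 CPM in tumours and 4.79, 1.07 and 6.69 CPM in adjacent lung. It was lowest in both libraries of mouse 217 (-0.22 ± 0.83, edgeR, adjusted p = 0.918), the mouse whose tumour was highest in 18 of the 19 mitotic members. Cyclins Ccna2 and Ccnb2 and the kinase Plk1 lay at 0.21 to 0.58, with Ccna2 at -0.05 when scaled by library totals.

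Of the spindle genes all 9 had a log2 fold change above 0, between 0.08 (Cenpa) and 1.04 (Ube2c), though Birc5, Bub1, Cenpa and Cenpe turned below 0 with library totals. Cdc20 was at 10.4, 21.0 and 16.4 CPM in tumours and 4.92, 10.4 and 11.3 CPM in adjacent lung. It was higher in the tumour of each mouse, and only tumour 102 fell within the adjacent range (0.84 ± 0.45, edgeR, adjusted p = 0.321, and 0.0814 with the mouse as a block). Kif20a, a kinesin of cytokinesis, was at 8.11, 9.82 and 7.87 CPM in tumours and 2.74, 6.21 and 6.76 CPM in adjacent lung (0.72 ± 0.46, edgeR, adjusted p = 0.413). The groups did not overlap for Kif20a, and 29.3% of its exonic length is shared with Cdc23 on the opposite strand. Ube2c, the ubiquitin-conjugating enzyme of the anaphase-promoting complex, was at 8.64, 43.8 and 14.1 CPM in tumours and 5.02, 18.9 and 8.35 CPM in adjacent lung. Each tumour exceeded its own adjacent lung (1.04 ± 0.71, edgeR, adjusted p = 0.449, and 0.0575 with the mouse as a block). Without tumour 217 the log2 fold change of Ube2c was 0.00070 (edgeR, adjusted p = 1.0), and those of Cdc20 and Kif20a were 0.51 and 0.53.

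Mki67 and Top2a are the most used marks of dividing cells. Mki67, which coats mitotic chromosomes, was at 23.1, 56.7 and 19.4 CPM in tumours and 15.9, 42.3 and 21.7 CPM in adjacent lung (0.31 ± 0.53, edgeR, adjusted p = 0.802). Top2a, DNA topoisomerase II alpha, was at 19.1, 38.4 and 23.4 CPM in tumours and 13.1, 28.2 and 22.9 CPM in adjacent lung (0.33 ± 0.41, edgeR, adjusted p = 0.711). In both tissues mouse 217 had the highest level and the groups overlapped. Without tumour 217 the log2 fold changes of Mki67 and Top2a were -0.40 and -0.09. Across the 42 members, 5 were higher in tumours without overlap (Mcm7, Prim1, Cdk2, Aurka and Kif20a), where 11.6% of all genes tested were, so the share is near the background. E2f1 was the 1 member lower without overlap, where 18.9% of all genes tested were.

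**Figure D1:**
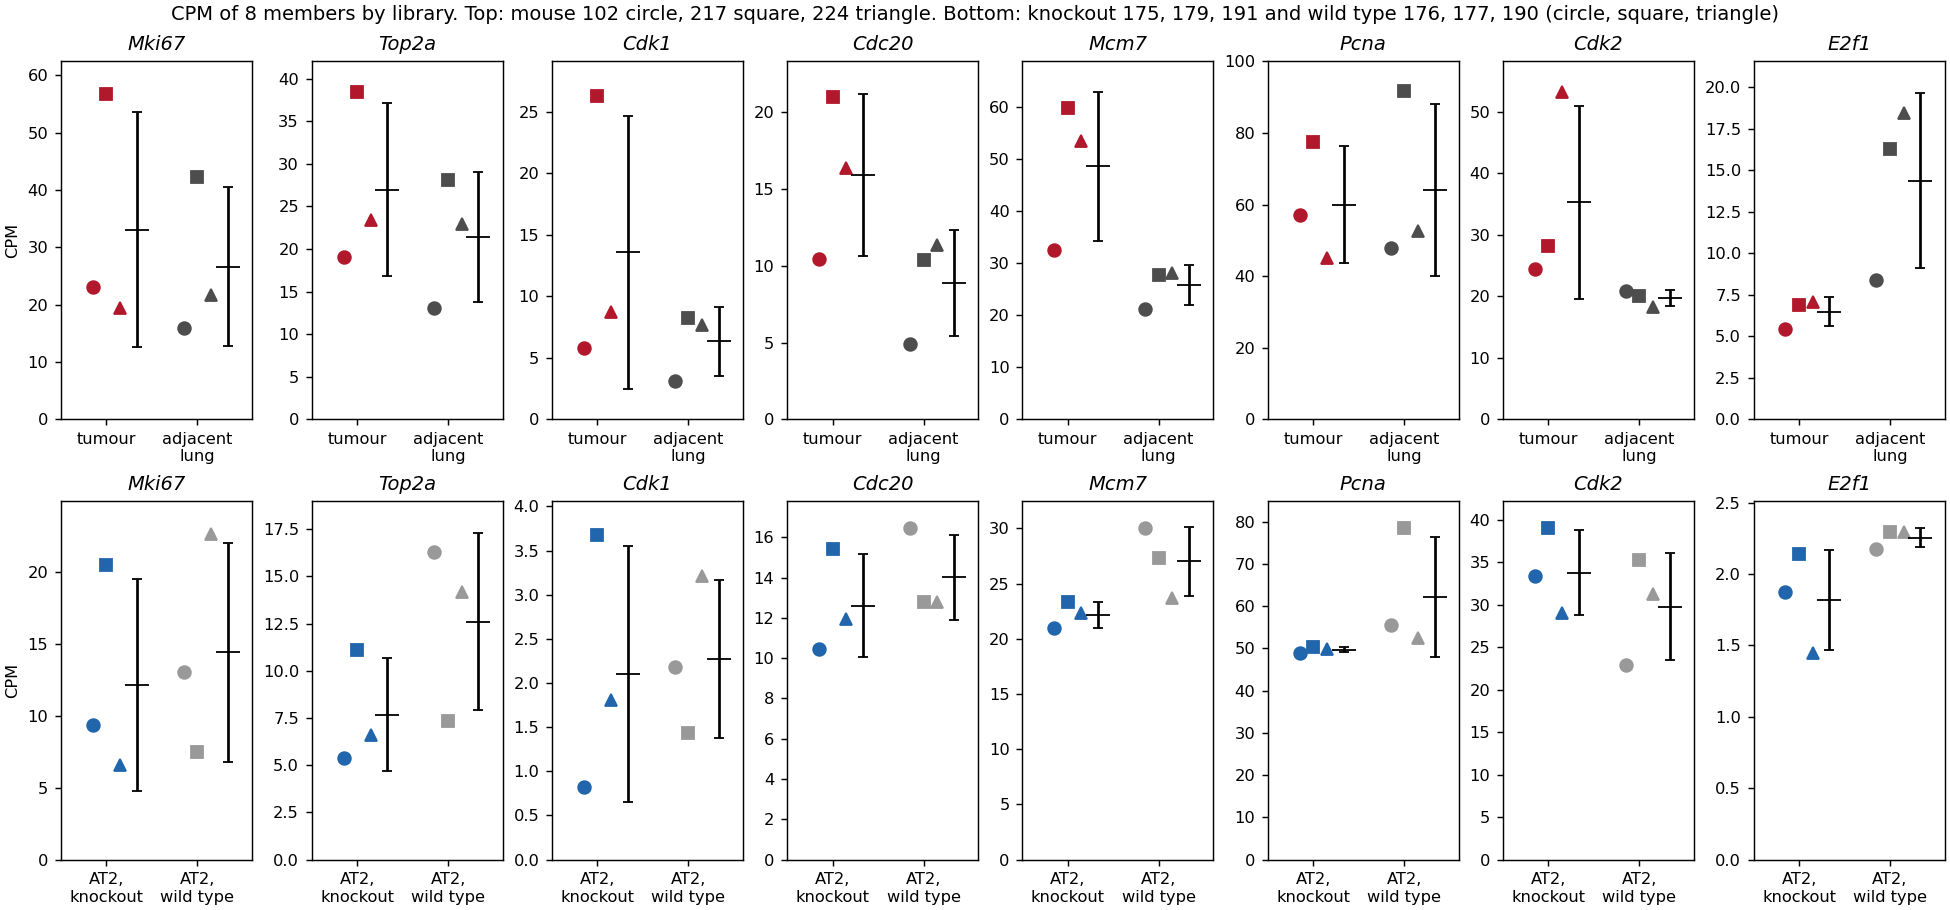
CPM (linear axis from 0) of 8 members in every library, with tumours left of adjacent lung in the upper row and knockout left of wild-type AT2 cells in the lower row. Points are single libraries, and the bar beside them is the mean ± SD of 3 libraries; Mcm7, Cdk2 and E2f1 do not overlap between tumour and adjacent lung, while Mki67, Top2a, Cdk1, Cdc20 and Pcna do.

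**Figure D2:**
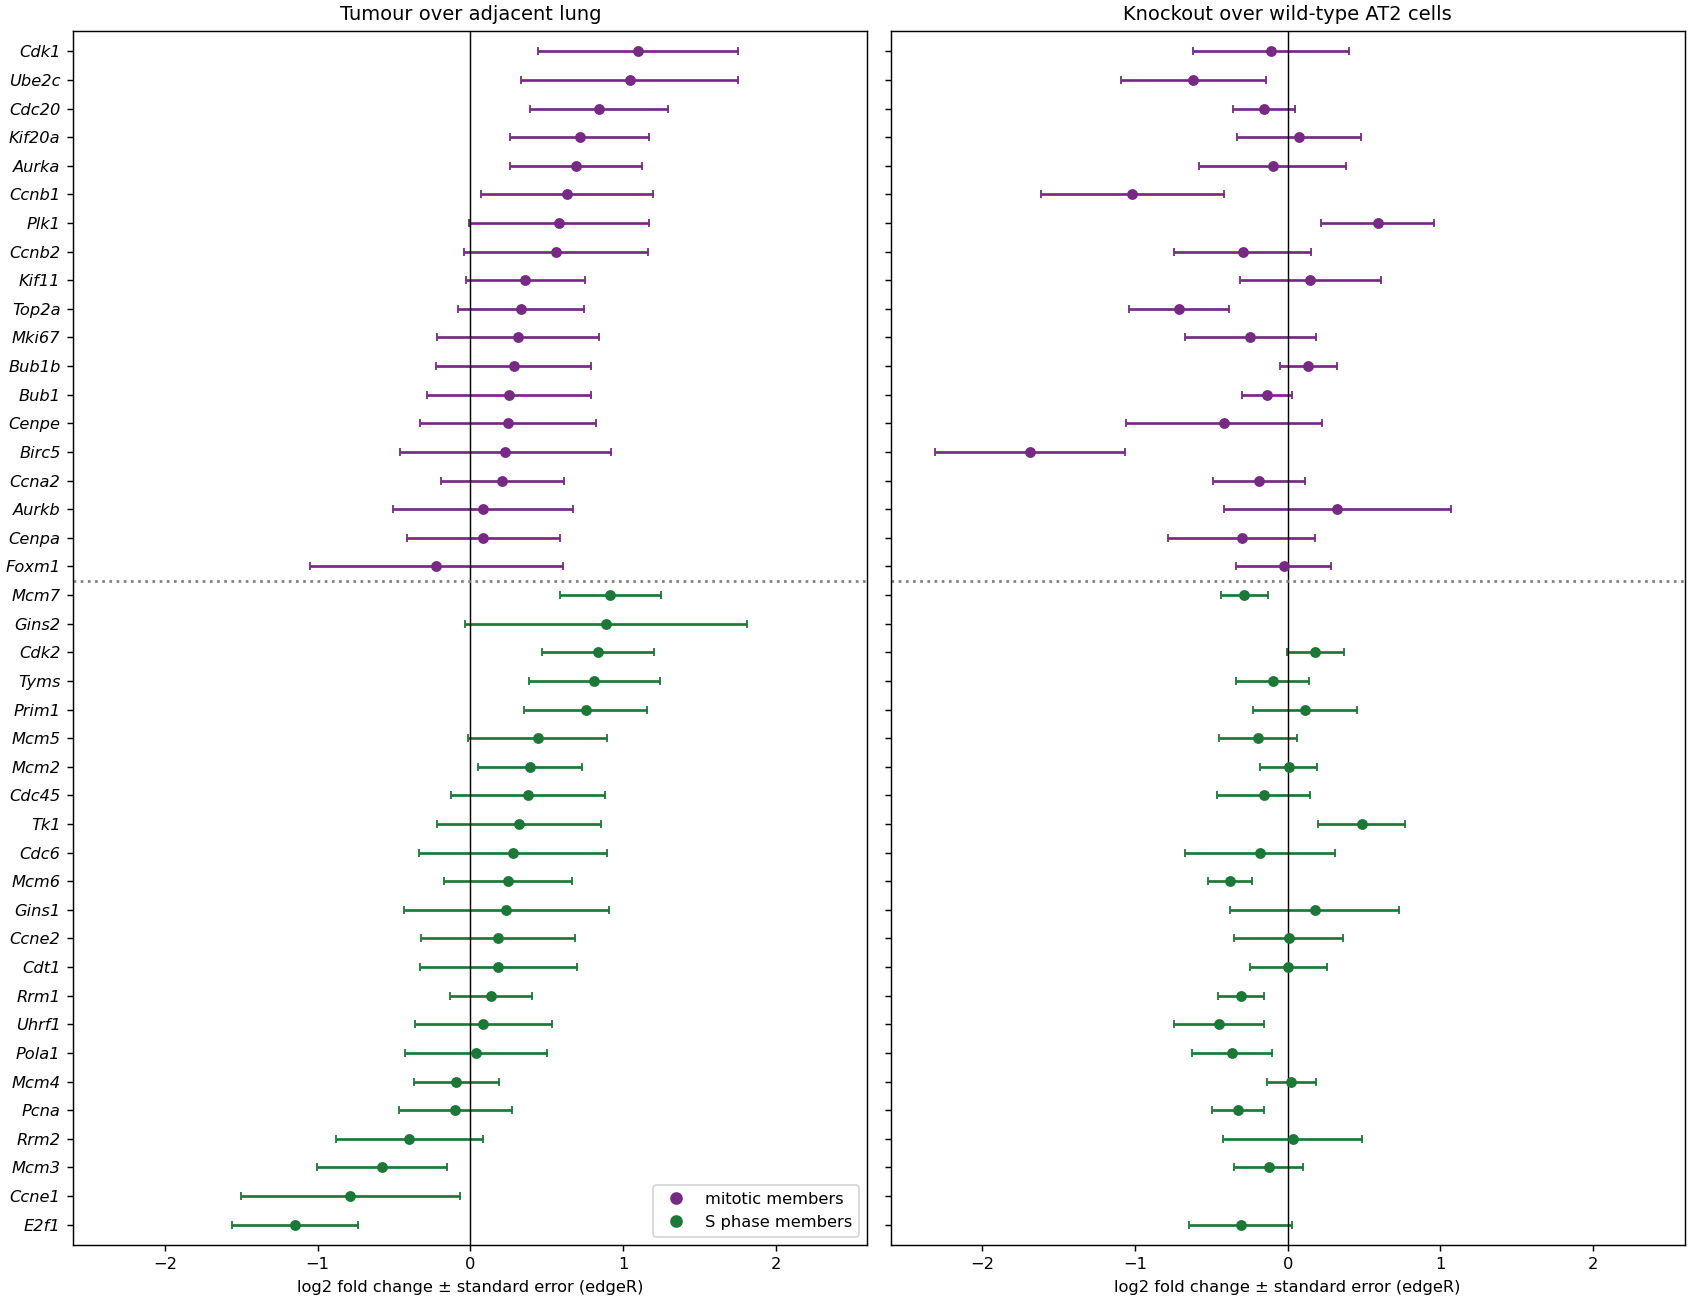
Log2 fold change ± standard error (edgeR) of the members in tumour over adjacent lung on the left and in knockout over wild-type AT2 cells on the right, with mitotic members above the dotted line and S phase members below it. In lung 18 of 19 mitotic and 17 of 23 S phase members lie above 0 (12 and 12 when scaled by library totals), and in AT2 cells 5 of 19 and 9 of 21 do (6 and 9); Gins2 and Ccne1 were not tested in AT2 cells.

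Compared within each mouse, most members were higher in the tumour of mice 102 and 217, and in mouse 224 their median was close to 0. On the scale of log2(CPM + 0.5), 34 of 42 members were higher in the tumour of mouse 102, 33 in that of mouse 217 and 25 in that of mouse 224. Of the 19995 genes tested, 9690, 9586 and 10598 were higher in the tumour of these mice. The median of tumour minus adjacent over the members was 0.51, 0.43 and 0.04 in these mice, and over all genes tested it was -0.02, -0.03 and 0.06. Mitotic members had medians of 0.65, 0.44 and 0.03, with 17, 18 and 11 of 19 higher in the tumour. S phase members had 17, 15 and 14 of 23 higher. In all 3 mice 19 members were higher in the tumour, among them Mcm2, Mcm5, Mcm6, Mcm7, Cdc45, Tyms and Cdk2 of the S phase class and Cdk1, Ccnb2, Aurka, Cdc20, Ube2c and Top2a of the mitotic class. Mcm3, Rrm2 and E2f1 were lower in the tumour in all 3 mice. The share of all genes tested that went the same way in all 3 mice was not counted.

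**Figure D3:**
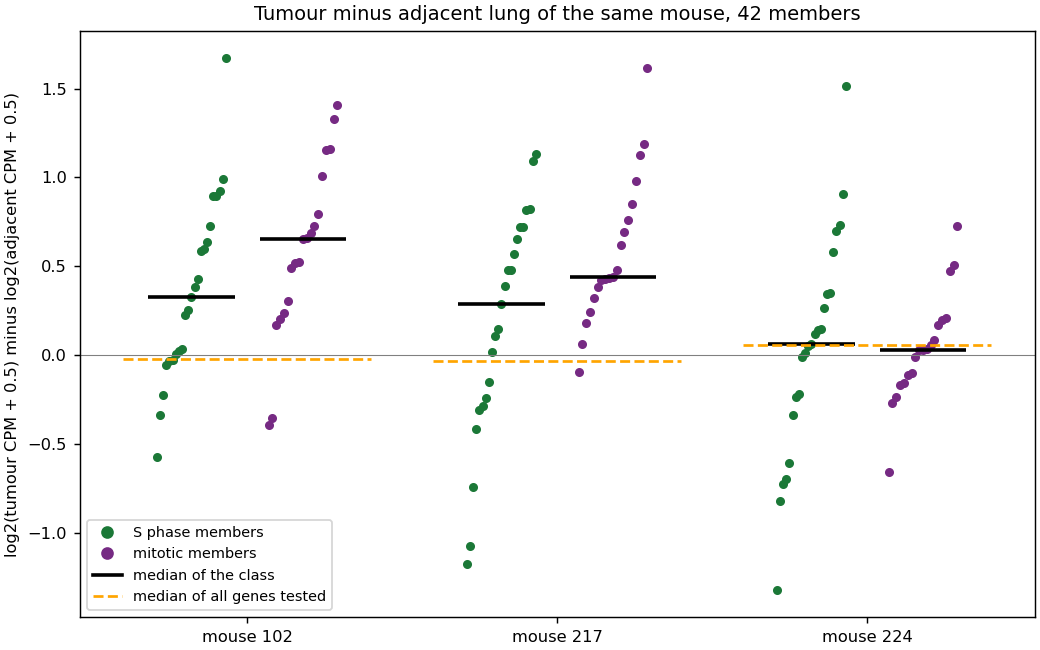
Tumour minus adjacent lung of the same mouse for each member, in log2(CPM + 0.5), with S phase members at left and mitotic members at right within each mouse. Black lines are class medians and dashed orange lines the median of all genes tested; the mitotic medians are 0.65 in mouse 102, 0.44 in mouse 217 and 0.03 in mouse 224.

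Single libraries stood out across the members. Summed CPM of the mitotic members was 143, 329 and 179 in tumours 102, 217 and 224 and 90.0, 208 and 172 in adjacent lung of the same mice. Adjacent 102 was the lowest adjacent library in 36 of 42 members, and tumour 217 the highest tumour in 31. The size of the members' median, and without tumour 217 its sign, depended on these libraries. Without tumour 217, 20 of 42 members were above 0 (median -0.02). The median of all genes was then -0.08, and 25 members lay above it. Without adjacent 102, 26 were above 0 (median 0.09, the same as that of all genes, with 21 members above it). Without both libraries of mouse 217, 25 were above 0 (median 0.15, against -0.04 for all genes). Spearman's rho between a member's deviation in a library and its exonic length was 0.384 in adjacent 102 and between -0.239 and 0.204 in the other 5 lung libraries, and its part in these values was not tested. Alveolar macrophage markers summed to 2165, 1244 and 883 CPM in tumours and 535, 7926 and 7532 CPM in adjacent lung. Most of this sum was Chil3, at 339 to 7439 CPM in adjacent lung, where Siglecf was at 7.84 to 10.5 CPM. Adjacent 102 had the lowest sum of the adjacent libraries. It was also the lowest adjacent library in the summed markers of T cells (37.7 CPM, against 136 and 73.0 CPM in adjacent 217 and 224), of B cells (101 CPM, against 623 and 191 CPM), of macrophages and monocytes (424 CPM, against 1180 and 915 CPM) and of AT2 cells, and the highest in those of endothelial cells. For neutrophil markers the lowest adjacent library was 224 (29.85 CPM, against 305 and 910 CPM in adjacent 102 and 217). Among tumours, 217 had the highest AT2 marker sum, at 227900 CPM, against 73850 and 94350 CPM in tumours 102 and 224. Sftpc, at 38770 to 183000 CPM in tumours, made up most of the sum in tumour 217. The part of these markers in the members' levels was not tested.

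**Figure D4:**
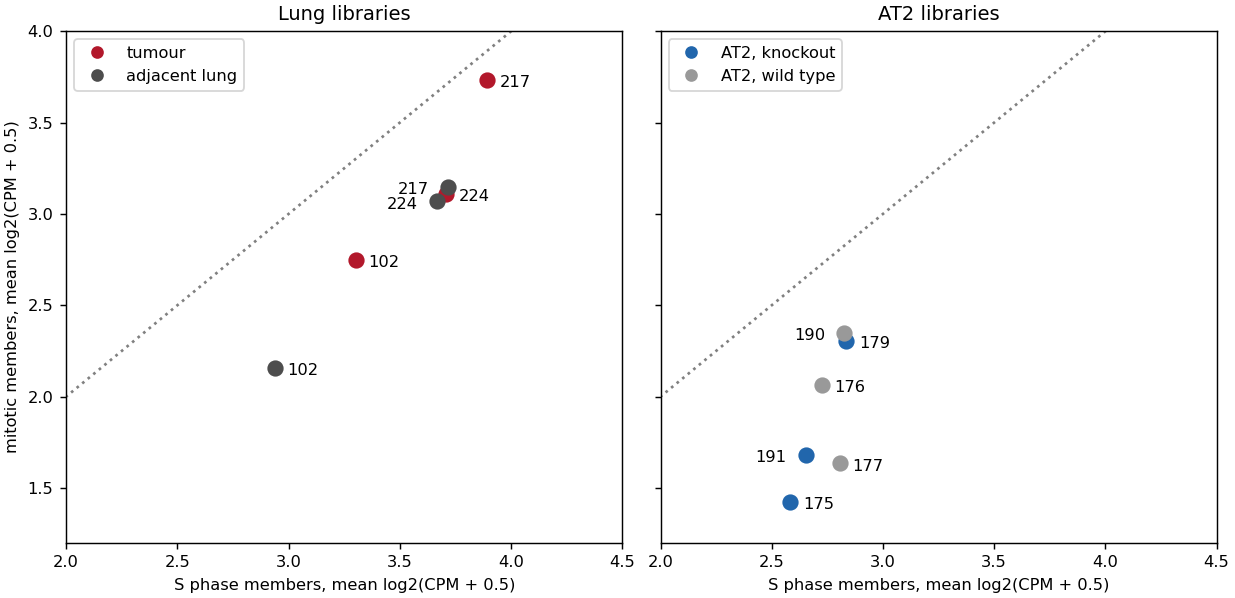
Mean log2(CPM + 0.5) of the S phase members (x axis) against that of the mitotic members (y axis) in each library, labelled by mouse number, for lung at left and AT2 cells at right; the dotted line marks equal means. Tumour 217 is highest and adjacent 102 lowest in both classes among lung libraries, and among AT2 libraries knockout and wild type intermix along the mitotic axis; the tables were normalised separately.

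The gap between the classes also followed the library. The mean log2 level of the S phase class minus that of the mitotic class was 0.55, 0.16 and 0.60 in tumours and 0.78, 0.57 and 0.60 in adjacent lung of mice 102, 217 and 224. In mice 102 and 217 the gap was smaller in the tumour, and in mouse 224 the tissues had the same gap to 2 decimals. Per kilobase of exon, Pcna had the highest level of all members in each group, at 25.0 CPM per kb in tumours and 26.7 CPM per kb in adjacent lung. Mcm7 (11.0 CPM per kb), Ube2c (8.53 CPM per kb) and Cdc20 (8.52 CPM per kb) came next in tumours, and Mcm3 (8.04 CPM per kb) and Mcm4 (7.14 CPM per kb) in adjacent lung. The lowest in tumours was Cdc6, at 0.434 CPM per kb.

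Among 111 further genes of the same pathways, all tested, 1 was called higher and 1 lower. Of the 19995 genes tested 2.86% were called higher and 7.18% lower, so both counts lie below the background. Of 39 further replication genes, Timeless was called lower and 38 were not called. Timeless, a replication fork protection protein, was at 8.55, 8.90 and 11.2 CPM in tumours and 22.5, 22.4 and 24.1 CPM in adjacent lung (-1.27 ± 0.30, edgeR, adjusted p = 0.0385). The groups did not overlap, but the call was lost without any 1 of the 6 libraries (adjusted p 0.0672 to 0.131). Its partner Tipin was at 0.26. Of 38 further mitotic genes, Kif23 was called higher and 37 were not called. Kif23, the kinesin of the centralspindlin complex, was at 25.4, 46.5 and 29.3 CPM in tumours and 6.43, 7.80 and 7.33 CPM in adjacent lung (2.23 ± 0.35, edgeR, adjusted p = 0.0125). It missed the threshold without adjacent 224 (adjusted p = 0.0532). Its direct partner Racgap1 had a log2 fold change of 0.02 and Ect2, which centralspindlin recruits, one of 0.29, and neither was called.

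Of 25 genes of E2F, Rb and the MuvB complex, none was called. E2f2, another activating E2F factor, was at 19.9, 12.1 and 11.5 CPM in tumours and 33.0, 29.2 and 44.5 CPM in adjacent lung (-1.30 ± 0.35, edgeR, adjusted p = 0.0576, and 0.0467 with the mouse as a block). Like E2f1, it did not overlap between the groups. Lin9, a subunit of MuvB, was at 8.80, 11.7 and 7.81 CPM in tumours and 3.82, 4.27 and 3.71 CPM in adjacent lung (1.26 ± 0.38, edgeR, adjusted p = 0.0805, and 0.0493 with the block). Rb1, which restrains E2F, was called lower only with the block and with DESeq2 (-1.01, edgeR, adjusted p = 0.0982 without the block and 0.0429 with it), and it was named after its values were seen. With the block, 3 of the 111 were called higher and 5 lower, where 5.57% and 9.34% of all genes tested were, so both counts lie below the background. Of 9 inhibitors of the cell cycle none was called. Cdkn1c, which encodes p57, was at 9.09, 14.2 and 9.94 CPM in tumours and 41.6, 31.6 and 14.7 CPM in adjacent lung (-1.41 ± 0.44, edgeR, adjusted p = 0.0894). Cdkn2d, an INK4 inhibitor of Cdk4 and Cdk6, was at 5.09, 12.0 and 6.37 CPM in tumours and 10.8, 34.7 and 20.7 CPM in adjacent lung (-1.50 ± 0.53, edgeR, adjusted p = 0.131, and 0.0258 with the block). Cdkn2a, the locus of p16 and p19Arf, was named after its values were seen. It was at 20.8, 29.7 and 21.9 CPM in tumours and 0.751, 15.3 and 5.99 CPM in adjacent lung without passing (1.72 ± 0.87, edgeR, adjusted p = 0.290), and it had 0 counts in all 6 AT2 libraries, where 3 counts would be 0.159 to 0.188 CPM.

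In the comparison of knockout with wild-type AT2 cells, no gene at all passed the test, and most members had a slightly lower fitted level in knockout that overlapped with wild type. With edgeR's quasi-likelihood test 0 of the 40 members tested were called, where 0% of the 14053 genes tested were called in either direction. At an unadjusted p under 0.05 there were 2 members, Birc5 and Mcm6, both lower in knockout, where 1.15% of all genes tested were lower and 1.32% higher at that level. DESeq2 called 0 members with 3 at an unadjusted p under 0.05, and limma-voom called 0 with 2. Of the 14053 genes tested, 366 and 382 were at that level with these tools. The median log2 fold change was -0.14 for members and -0.01 for all genes, with 14 members above 0 and 26 below (15 above 0 with library totals). Gins2 and Ccne1 had too few counts to be tested. The groups did not overlap for 7 of 40 members lower in knockout, where 4.11% of all genes tested did so, and for 1 member higher, Plk1, where 4.19% did. The 7 share the same 6 libraries and are no independent counts.

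Of these 7 members, 6 belonged to the S phase class. Mcm6 was at 24.9, 27.1 and 26.6 CPM in knockout 175, 179 and 191 and at 32.6, 37.0 and 32.5 CPM in wild type 176, 177 and 190. The levels within each genotype were close, and the difference was small (-0.38 ± 0.14, edgeR, adjusted p = 0.984). Mcm7 was at 21.0, 23.3 and 22.3 CPM in knockout and 30.0, 27.4 and 23.7 CPM in wild type (-0.28 ± 0.15, edgeR, adjusted p = 0.984). Pcna was at 49.0, 50.2 and 49.8 CPM in knockout and 55.6, 78.6 and 52.5 CPM in wild type (-0.32 ± 0.17, edgeR, adjusted p = 0.984). For Pcna the knockout libraries nearly coincided, and wild type 177 stood above the rest. Over genes of at least 20 counts, knockout libraries were also closer to each other than wild-type ones. The chi-square per degree of freedom between 2 libraries was 7.23 to 10.8 in knockout and 45.9 to 94.0 in wild type. Its part in the separation of these members was not tested. Rrm1 was at 23.3, 27.1 and 25.4 CPM in knockout and 29.1, 35.0 and 29.6 CPM in wild type (-0.30 ± 0.15, edgeR, adjusted p = 0.984). E2f1 was low throughout, at 1.87, 2.14 and 1.45 CPM in knockout and 2.18, 2.29 and 2.30 CPM in wild type (-0.31 ± 0.34, edgeR, adjusted p = 0.984). Uhrf1, which recruits DNA methyltransferase to new DNA, was the other S phase gene without overlap (-0.45 ± 0.29). For some of these genes the separation was narrow. The nearest knockout and wild-type libraries held 53 and 53 counts for Uhrf1, 39 and 37 for E2f1, and 425 and 413 for Mcm7. Mcm2, by contrast, was at 17.4, 17.4 and 12.9 CPM in knockout and 15.7, 14.1 and 17.7 CPM in wild type (0.01 ± 0.18, edgeR, adjusted p = 1.0). Cdk2 was at 33.4, 39.0 and 29.1 CPM in knockout and 22.9, 35.3 and 31.2 CPM in wild type, with overlap (0.18 ± 0.19, edgeR, adjusted p = 0.984).

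Most mitotic members were at a few CPM in AT2 cells and differed widely between mice of a genotype. Birc5, survivin of the chromosomal passenger complex, was at 0.175, 0.933 and 0.241 CPM in knockout and 1.24, 2.01 and 1.21 CPM in wild type (-1.69 ± 0.62, edgeR, adjusted p = 0.984). These levels stand on 3, 17 and 4 counts in knockout and 21, 35 and 21 counts in wild type. Plk1, a kinase of mitotic entry, was at 2.22, 1.87 and 1.93 CPM in knockout and 1.29, 1.03 and 1.67 CPM in wild type (0.59 ± 0.37, edgeR, adjusted p = 0.984). Of its list of mitotic entry genes, Aurkb (0.33) was the only other above 0, and Foxm1 was at 0.02 with library totals. Ccnb1 was at 0.292, 1.87 and 0.784 CPM in knockout and 2.24, 1.03 and 2.76 CPM in wild type (-1.02 ± 0.60, edgeR, adjusted p = 0.984). Cdk1 was at 0.818, 3.68 and 1.81 CPM in knockout and 2.18, 1.43 and 3.22 CPM in wild type (-0.11 ± 0.51, edgeR, adjusted p = 0.992). Both genes overlapped, with knockout 175 lowest of all. Knockout 179 lay within the wild-type range for Ccnb1 and was the highest of the 6 libraries for Cdk1. Ube2c was at 0.818, 3.07 and 1.09 CPM in knockout and 2.18, 2.64 and 2.87 CPM in wild type (-0.62 ± 0.48, edgeR, adjusted p = 0.984). Foxm1 was at 3.21, 5.54 and 4.34 CPM in knockout and 3.88, 3.38 and 6.09 CPM in wild type (-0.03 ± 0.31, edgeR, adjusted p = 0.998). Mki67 was at 9.35, 20.5 and 6.57 CPM in knockout and 13.1, 7.51 and 22.6 CPM in wild type (-0.24 ± 0.43, edgeR, adjusted p = 0.984). Each genotype held 1 library above 20 CPM and others at 13.1 CPM or below. Top2a was at 5.38, 11.1 and 6.57 CPM in knockout and 16.3, 7.34 and 14.2 CPM in wild type (-0.71 ± 0.33, edgeR, adjusted p = 0.984).

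The same AT2 libraries were high or low in most mitotic members. Knockout 179 was the highest knockout library in 16 of 19 mitotic members and knockout 175 the lowest in 14. Wild type 190 was the highest wild-type library in 14 and wild type 177 the lowest in 15. Summed CPM of the mitotic members was 80.6, 127 and 91.1 in knockout 175, 179 and 191 and 115, 86.7 and 139 in wild type 176, 177 and 190. S phase members spread less, with sums of 247, 280 and 249 CPM in knockout and 274, 313 and 277 CPM in wild type. The S phase minus mitotic gap was 1.16, 0.53 and 0.97 in knockout and 0.66, 1.17 and 0.48 in wild type, widest where mitotic genes were lowest in either genotype. Without knockout 179, 7 of 41 members were above 0 (median -0.33), and without wild type 190, 20 of 40 were (median -0.01), with 12 of 19 mitotic members above 0. Ptprc was at 13.2, 4.67 and 5.31 CPM in knockout and 6.47, 4.07 and 4.88 CPM in wild type. It was highest in knockout 175, which had the lowest mitotic sum, but lowest in wild type 177, which had the lowest wild-type mitotic sum. Its part in these values was not tested.

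**Figure D5:**
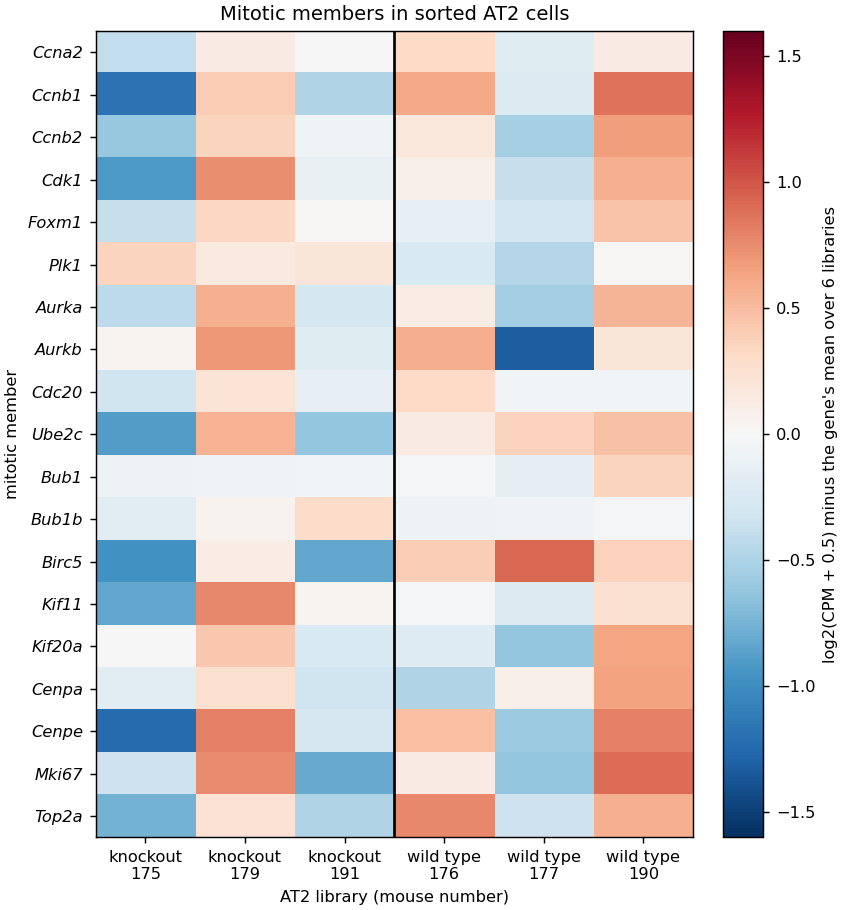
Level of each mitotic member in the 6 AT2 libraries, as log2(CPM + 0.5) minus the gene's mean over the 6, with knockout left of the black line and wild type right of it. Red is above and blue below the gene's mean; knockout 179 and wild type 190 are mostly red, knockout 175 and wild type 177 mostly blue.

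Bub1 had a high level for a mitotic gene in AT2 cells. Bub1, a kinase of the spindle checkpoint, was at 26.8, 27.3 and 27.6 CPM in knockout and 27.8, 25.6 and 36.3 CPM in wild-type AT2 cells, against 1.82 to 5.17 CPM in tumours and 2.47 to 3.01 CPM in adjacent lung. It was named after its values were seen. Per kilobase of exon Bub1 stood at 6.26 CPM per kb in knockout and 6.87 CPM per kb in wild-type AT2 cells, near the level of Cdc20 (6.75 and 7.51 CPM per kb) and above those of Mki67 (1.21 and 1.43 CPM per kb) and Cdk1 (0.426 and 0.461 CPM per kb). The exons of Cdc20 share 2.84% of their length with Elovl1 on the opposite strand, which had a mean of 1624 CPM in knockout AT2 cells, and whether its reads enter the Cdc20 level was not tested. The AT2 and lung tables were normalised apart, so the levels are set side by side and were not tested. The E2F factors also differed in level: E2f2 was at 68.1, 70.7 and 71.0 CPM in knockout and 83.4, 51.0 and 65.9 CPM in wild-type AT2 cells, where E2f1 was at 1.45 to 2.30 CPM.

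Of the further pathway genes, 103 were tested in AT2 cells and edgeR called 0, with 2 at an unadjusted p under 0.05. Their log2 fold change was above 0 in 35 and below 0 in 68, with a median of -0.09. Among replication genes Dut, which removes dUTP, was at -0.45 ± 0.21 and Orc2, of the origin recognition complex, at -0.38 ± 0.19. Among mitotic genes Ncaph, of the condensin complex, was at -1.34 ± 0.52 and the kinesin Kif15 at 0.46 ± 0.21. Ncaph stood on levels of 0.362 to 0.769 CPM in knockout and 0.860 to 2.07 CPM in wild type. Tfdp2, a dimer partner of E2F, was at 0.22 ± 0.17 and Cks2, a subunit of cyclin-dependent kinases, at -0.69 ± 0.54. Cdkn1c was at 4.67, 6.70 and 3.74 CPM in knockout and 11.6, 7.40 and 5.11 CPM in wild type (-0.67 ± 0.32), and Cdkn2d at -0.27 ± 0.20. All of these had an adjusted p of 0.984 with edgeR.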

How the data were processed

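RNA was measured by poly(A) RNA-seq in 6 lung and 6 AT2 libraries, each from 1 mouse sample. The authors deposited raw counts per gene in 2 tables, 1 for lung and 1 for AT2 cells. The submitters' processing notes name Trimmomatic 0.39, FastQC, StringTie 1.3.3b, HISAT2 and, at version 1.28.1, DESeq2, with the build GRCm38 (mm10). How reads were counted, whether strand was used and which annotation served is not given in the sources used here, so genes that overlap on opposite strands can share reads (13 members overlap another gene's exons, 11 of them a protein-coding gene's). Identifiers were named with GENCODE M21. Rows without a name carried 0.0921% of lung and 0.0289% of AT2 counts. The tables share 54186 identifiers and were normalised and tested apart.

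The deposited counts were tested with edgeR 4.0.16 under R 4.3.3 (quasi-likelihood test, its filter on low counts, TMM scaling), with group as the only term, two-sided, and a Benjamini-Hochberg adjusted p under 0.05 over all genes tested. CPM used TMM-scaled totals, and values are given per library or as mean ± SD (n = 3). Log2 fold changes, tumour over adjacent or knockout over wild type, carry ± their standard error. Alternatives were library totals only, size factors of DESeq2 in edgeR, DESeq2 1.42.0, limma-voom (limma 3.58.1), no filter, the mouse as a block, leaving out mouse 217 or 1 library, and, for the class means, other pseudocounts than 0.5. The script was tested on simulated counts.

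Each mouse number marks 1 animal that gave both tumour and adjacent lung, so the numbers pair the lung samples. Deviations from the group means had a Pearson r across genes of 0.273, 0.459 and 0.366 within mice 102, 217 and 224. Between different mice it was -0.342 to 0.0406. Taking out the group means pulls the values between mice below 0 when those within mice are above it, so this contrast is partly fixed. The AT2 genotypes came from separate mice. Counting floors cover counting error only. Named members were Mki67, Top2a, Ccnb1, Cdk1, Foxm1, Mcm2, Pcna and E2f1, each member past the threshold and the 2 of smallest p in each of the 6 role lists per comparison. From each further list they were the genes past the threshold or else the 2 of smallest p. The members and all lists were chosen with earlier results of these data known. Other members and genes with values were named after their values were seen, and the 4 printed promoters after their motif counts were seen.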

Additional observations from a re-analysis of the deposited data

How the results depend on the processing

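For the 42 members in lung and the 40 tested in AT2 cells, the counts of calls were 0 higher and 0 lower in every setting, except that the mouse as a replicate block called 1 member higher, Mcm7. Their median log2 fold change ran over -0.02 to 0.50 in lung and -0.33 to -0.01 in AT2 cells. Tumour against adjacent lung gave 2007 genes past the threshold, 571 higher and 1436 lower. With library totals only it gave 393 higher and 1840 lower, with the mouse as a block 2980 genes, with DESeq2 3729, without both libraries of mouse 217 847, and without 1 library 598 to 1854. AT2 cells gave 0 genes (347 at an unadjusted p under 0.05), 1 with DESeq2, 0 with limma-voom, 17 when genes of low counts were kept, and 0 to 1 without 1 library (1 without wild type 176). The cause of these differences was not tested, though fewer libraries also leave less power. Outside the members, Timeless also missed the threshold without the filter (adjusted p = 0.0514) and without mouse 217 (0.107), and Kif23 without mouse 217 (0.0531). The S phase minus mitotic gap was above 0 in every library with each pseudocount, so its sign is a weak check. It stayed smaller in the tumour of mice 102 and 217. With a pseudocount of 1 it was 0.54 against 0.75 in mouse 102 and 0.16 against 0.55 in mouse 217. With 0.1 it was 0.56 against 0.81 and 0.16 against 0.59. With 3 libraries a group, p-values without the block set a group difference against the spread between libraries of a group. With the block they set it against the spread left after each mouse's own level is taken out. A median standard error of 0.49 in lung (0.29 with the mouse as a block) and 0.32 in AT2 cells limits what could be called. AT2 members under 1 CPM rest on few counts.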
